A study of Homo sapiens with 9 samples.

Results

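The genes described here are CHMP1A, CHMP1B, CHMP2A, CHMP2B, CHMP3, CHMP4A, CHMP4B, CHMP4C, CHMP5 and CHMP6, which encode subunits of the endosomal sorting complex required for transport III (ESCRT-III). They were taken by gene name from the 58735 genes counted in each library, and each of the 10 names matched 1 gene. RNA had been sequenced from MDA-MB-231, an established triple-negative breast cancer (TNBC) cell line, in 3 groups of 3 libraries. Vehicle cells had received DMSO, erastin-R cells had survived increased concentrations of erastin, which blocks cystine import, and RSL3-R cells had survived increased concentrations of RSL3, which inhibits the lipid peroxidase GPX4. Both drugs induce ferroptosis, a cell death driven by lipid peroxidation, and the libraries ask which transcripts differ in cells that outlast it. All 9 libraries come from the same cell line, the treated groups hold only cells that survived the drug, and the labels give no dose, time or clone and do not say whether the libraries of a group came from separate cultures. The p values therefore measure the spread between these libraries, which may be technical.

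ESCRT-III subunits are small helical proteins that polymerise into filaments on the inner face of a membrane neck and, with the ATPase VPS4, narrow and cut it. In the usual order of assembly, ESCRT-II or ALIX (PDCD6IP) starts the filament through CHMP6 or CHMP4, CHMP4 forms most of it, CHMP3 and CHMP2 follow, and CHMP1 and CHMP5 act late with VPS4 and its cofactors. The same machinery sorts receptors into endosomes, separates daughter cells, reseals the nuclear envelope and sheds damaged plasma membrane, and it is known to delay the final membrane rupture in ferroptosis. The measurements below are levels of mRNA in whole cultures, in which fewer cells of a kind and less RNA per cell cannot be told apart, and they hold no protein or membrane measurement.

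Of the members, CHMP1B was higher and CHMP3 and CHMP6 were lower in both surviving groups than in vehicle cells, and CHMP2B was higher in RSL3-R cells. The 2 promoters shown are those of CHMP1B and CHMP2B. Both members were higher in RSL3-R cells at an adjusted p under 0.05, and their paralogues CHMP1A and CHMP2A were not. CHMP2A had the same sign there (log2 fold change 0.19, beside 0.49 for CHMP2B), and CHMP2B did not pass in erastin-R cells. Each promoter shown is the stretch of the RefSeq promoter window (build GRCh38.p14) that ends at the base before the gene model used in the deposited files. The CHMP1B stretch is chr18:11851163-11851395 on the plus strand, and its capitals mark a cAMP response element. The CHMP2B stretch is chr3:87227059-87227270 on the plus strand and held none of the 4 motifs searched.
CHMP1B: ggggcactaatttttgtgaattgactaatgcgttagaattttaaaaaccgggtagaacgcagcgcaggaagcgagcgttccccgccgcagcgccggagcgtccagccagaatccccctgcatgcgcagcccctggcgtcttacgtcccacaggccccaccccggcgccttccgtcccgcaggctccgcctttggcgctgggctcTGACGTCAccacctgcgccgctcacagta
CHMP2B: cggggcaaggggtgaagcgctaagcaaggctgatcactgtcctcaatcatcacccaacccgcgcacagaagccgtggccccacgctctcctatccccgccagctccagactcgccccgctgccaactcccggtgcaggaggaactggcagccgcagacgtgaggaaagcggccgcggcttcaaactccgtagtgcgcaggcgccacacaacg

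The 4 motifs were the cAMP response element TGACGTCA, the composite element of ATF4 and C/EBP TGATGNAA, the AP-1 site TGANTCA and the antioxidant response element TGACNNNGC, searched on both strands in the 250 bases before each RefSeq start site. They were chosen after the members' values were known. Of the 10 members, 7 had a RefSeq promoter, and CHMP3, CHMP4C and CHMP6 were not among them. TGACGTCA stood in CHMP1B alone of the 7 and in 1.64% of 34788 promoters. TGACNNNGC stood in CHMP5 alone of the 7 and in 10.9% of all promoters, while TGATGNAA (3.16% of all) and TGANTCA (6.59% of all) stood in none of the 7. These are matches of letters, which say nothing about whether a factor is bound there.

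Total counts per library ranged from 15405102 to 17273464. The common biological coefficient of variation of the fit was 8.56%, a single value for the spread within all groups, which were not equally tight. Known markers of the labelled cell line were looked at, which by themselves cannot identify the line or its triple-negative status. VIM (1274.5 to 1581.2 CPM, counts scaled by the normalized library size) and CD44 (230.5 to 320.8 CPM) were abundant in all 9 libraries, and the hormone receptor genes ESR1 and PGR had at most 12 and 2 counts. The epithelial genes EPCAM and CDH1 and the leukocyte gene PTPRC were scarce, with at most 48, 59 and 24 counts in any library. In RSL3-R cells CDH1 rose by 1.58 on the log2 scale (3.21 to 3.80 CPM against 0.865 to 1.67 CPM in vehicle cells, edgeR adjusted p = 0.0013) and PTPRC by 1.67 (1.22 to 1.49 CPM against 0.247 to 0.656 CPM, edgeR adjusted p = 0.00818), and their part in the RSL3-R results was not tested. KRT18 was lower in erastin-R cells (69.5 to 87.7 CPM) than in vehicle cells (165.4 to 172.8 CPM). Erastin-R replicate 1 stood apart from replicates 2 and 3 of its group. It differed from their mean by more than 0.4 on the log2 scale in 5 of the 10 members, compared with 25.8% of the genes tested. In the comparisons that include erastin-R cells, each member below is therefore also given without it where that changes a call. This library also enters the spread that the main fit shares over all 9 libraries. For RSL3-R against vehicle, the only fit without it is that of these 2 groups alone, given where it changes a call. For these 5 members, log2 CPM in replicate 1 lay 0.68 above the mean of the other 2 libraries for CHMP4C, 0.63 above for CHMP4B, 0.47 above for CHMP5 and 0.45 above for CHMP2A, and CHMP1A differed by -0.54.

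All 10 members passed the filter on low counts, and p values were adjusted over all 16188. In erastin-R cells 1 member rose and 3 fell at an adjusted p under 0.05, where 27.1% of all genes tested rose and 26.8% fell. In RSL3-R cells 4 members rose and 3 fell, where 23.8% of all genes rose and 24.9% fell. A stricter threshold, given in a supplementary legend of the study and applied here to edgeR values, adds a log2 fold change of 1 or more in size. It was passed by 1 member in each comparison, CHMP6 in erastin-R cells and CHMP4A in RSL3-R cells, beside 13.4% and 10.1% of all genes. The study's methods name another rule, a fold change over 2 and a P value under 0.05 from Cufflinks. With total count scaling 2 members rose and 2 fell in erastin-R cells, and with limma after quantile normalization 2 and 3. These settings called 8732 and 8683 of all 16188 genes in either direction, beside 8735 in the main fit. The counts of members were not tested against the background. The median log2 fold change was -0.03 over the members in the erastin-R comparison and 0.21 in the RSL3-R comparison, beside 0.00 and 0.01 over all genes. Both comparisons use the same vehicle libraries.

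**Figure D1:**
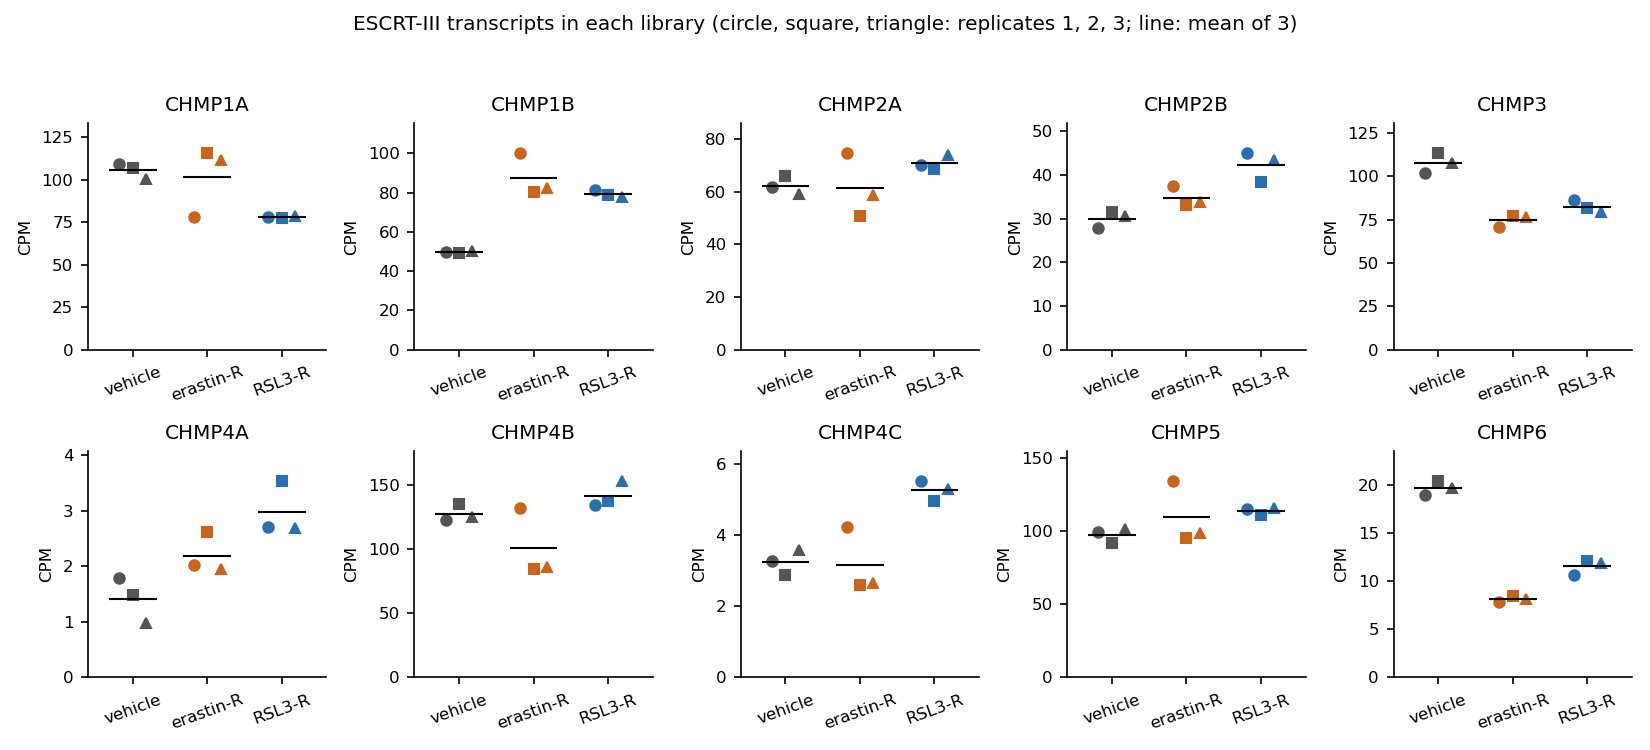
Normalized counts (CPM, linear axes from 0) of the 10 members in each library, with circles, squares and triangles for replicates 1, 2 and 3 of the vehicle, erastin-R and RSL3-R groups and a line at the group mean. CHMP6 lies lower and CHMP1B higher in all 6 libraries of surviving cells than in any vehicle library, and erastin-R replicate 1 lies away from its group in CHMP1A, CHMP2A, CHMP4B, CHMP4C and CHMP5.

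CHMP6 links ESCRT-II to the filament and is anchored in the membrane by a myristoyl group. It lies on chromosome 17 of GRCh38 from 80991598 to 81009517 (ENSG00000176108). The libraries held 18.9, 20.4 and 19.6 CPM in the vehicle libraries, 7.86, 8.46 and 8.09 CPM in the erastin-R libraries and 10.6, 12.1 and 11.9 CPM in the RSL3-R libraries. All 6 libraries of surviving cells lay under every vehicle library, and the erastin-R libraries lay under the RSL3-R libraries. Compared with vehicle cells, CHMP6 fell to 0.415 times the level in erastin-R cells (log2 fold change -1.27, standard error 0.10, edgeR adjusted p = 2.88e-07) and to 0.588 times in RSL3-R cells (log2 fold change -0.77, standard error 0.10, edgeR adjusted p = 2.78e-05). Both calls held in every alternative run. The direct difference of 0.50 (log2, RSL3-R over erastin-R, standard error 0.11) had an adjusted p of 0.0016 from edgeR. An antisense gene, AC127496.6, shares 21.5% of the exon bases of CHMP6, and it had 0 counts in all 9 libraries. Where the counting dropped reads shared between genes, this count would miss reads in the shared bases, so their number is not known.

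CHMP4 proteins build most of the filament, and CHMP4B was the most abundant member per length in every group. CHMP4B (ENSG00000101421) lies on chromosome 20 from 33811304 to 33854366. The libraries held 122.8, 135.4 and 125.4 CPM in vehicle cells, 132.7, 84.9 and 86.4 CPM in erastin-R cells and 134.6, 137.8 and 153.7 CPM in RSL3-R cells. Erastin-R replicate 1 lay within the vehicle range while replicates 2 and 3 lay below it, so the groups overlapped. The log2 fold change in erastin-R cells was -0.33 (standard error 0.13, edgeR adjusted p = 0.0466), a narrow call. It became -0.58 without erastin-R replicate 1 (edgeR adjusted p = 2.44e-09) and was lost without erastin-R replicate 2 (-0.22) or 3 (-0.23), both with an adjusted p of 0.183, and without any 1 of the vehicle libraries. In RSL3-R cells it was 0.15 (standard error 0.13, edgeR adjusted p = 0.366). That value passed only in the fit of the 2 groups alone, which holds no erastin-R library (edgeR adjusted p = 0.0143).

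CHMP4C, the paralogue that delays the final cut between daughter cells, was much scarcer. CHMP4C (ENSG00000164695) lies on chromosome 8 from 81732434 to 81759515. The libraries held 3.28, 2.90 and 3.58 CPM in vehicle cells, 4.23, 2.61 and 2.67 CPM in erastin-R cells and 5.54, 4.97 and 5.32 CPM in RSL3-R cells, from 41 to 91 counts per library. The RSL3-R libraries all lay above the other 6, whereas the erastin-R libraries lay on both sides of the vehicle range. CHMP4C rose 1.62-fold in RSL3-R cells (log2 fold change 0.70, standard error 0.20, edgeR adjusted p = 0.00994), and the value in erastin-R cells was -0.03 (standard error 0.21, edgeR adjusted p = 0.904). On the opposite strand, ZFAND1 shares 13.4% of the exon bases of CHMP4C and had 820 to 1467 counts. ZFAND1 rose as well, by 0.74 on the log2 scale in RSL3-R cells (edgeR adjusted p = 1.45e-06) and 0.52 in erastin-R cells (edgeR adjusted p = 3.54e-05). Whether the authors' counting used strand is not given in the sources used here, and the part of ZFAND1 reads in the CHMP4C counts was not tested.

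CHMP4A, the third paralogue, was near the lower end of what these libraries can measure. CHMP4A (ENSG00000254505) lies on chromosome 14 from 24209583 to 24213869. Its libraries held 30, 24 and 16 counts in vehicle cells, 34, 41 and 32 counts in erastin-R cells and 42, 57 and 46 counts in RSL3-R cells, that is 1.79, 1.48 and 0.987 CPM, 2.02, 2.61 and 1.95 CPM, and 2.71, 3.54 and 2.69 CPM. The 3 groups did not overlap. The gene rose 2.09-fold in RSL3-R cells (log2 fold change 1.06, standard error 0.26, edgeR adjusted p = 0.00374), while the value in erastin-R cells was 0.62 (standard error 0.27, edgeR adjusted p = 0.0645). The log2 fold change in RSL3-R cells fell under 1 without vehicle replicate 3 or RSL3-R replicate 2 (lowest of the fits that leave out a library 0.86), and the erastin-R value passed the test without vehicle replicate 1 (edgeR adjusted p = 0.0411). Other genes on the same strand share 68.8% of the exon bases of CHMP4A, so its level is uncertain where the counting dropped reads that 2 genes share. The overlapping gene AL096870.2 had 7 to 21 counts and was at 0.40 on the log2 scale in RSL3-R cells (edgeR adjusted p = 0.505). Spread over the 753 unshared bases alone, the counts of CHMP4A gave 1.86 ± 0.528 FPKM (counts per length and library size, SD, n = 3) in vehicle cells and 3.93 ± 0.636 FPKM in RSL3-R cells. These values lay below CHMP2B and CHMP6, and in vehicle cells (1.30 to 2.35 FPKM) they overlapped those of CHMP4C (1.54 to 1.9 FPKM). In erastin-R cells (2.56 to 3.41 FPKM) and RSL3-R cells (3.55 to 4.66 FPKM) they lay above CHMP4C (1.38 to 2.22 and 2.64 to 2.95 FPKM).

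CHMP3 joins CHMP2 on the growing filament. CHMP3 (ENSG00000115561) lies on chromosome 2 from 86503431 to 86563479. The libraries held 102.0, 113.5 and 107.5 CPM in vehicle cells, 70.7, 77.1 and 76.7 CPM in erastin-R cells and 86.3, 81.5 and 79.4 CPM in RSL3-R cells. The 3 groups did not overlap, and both surviving groups lay under the vehicle range. CHMP3 fell to 0.695 times the vehicle level in erastin-R cells (log2 fold change -0.52, standard error 0.07, edgeR adjusted p = 1.66e-05) and to 0.765 times in RSL3-R cells (log2 fold change -0.39, standard error 0.07, edgeR adjusted p = 0.00027). Both calls held in every alternative run, and the direct difference between the surviving groups was 0.14 (edgeR adjusted p = 0.102). The readthrough gene RNF103-CHMP3, which shares 10.8% of the exon bases of CHMP3, had 1 to 6 counts. As for CHMP6, these counts would miss reads in the shared bases where the counting dropped such reads.

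**Figure D2:**
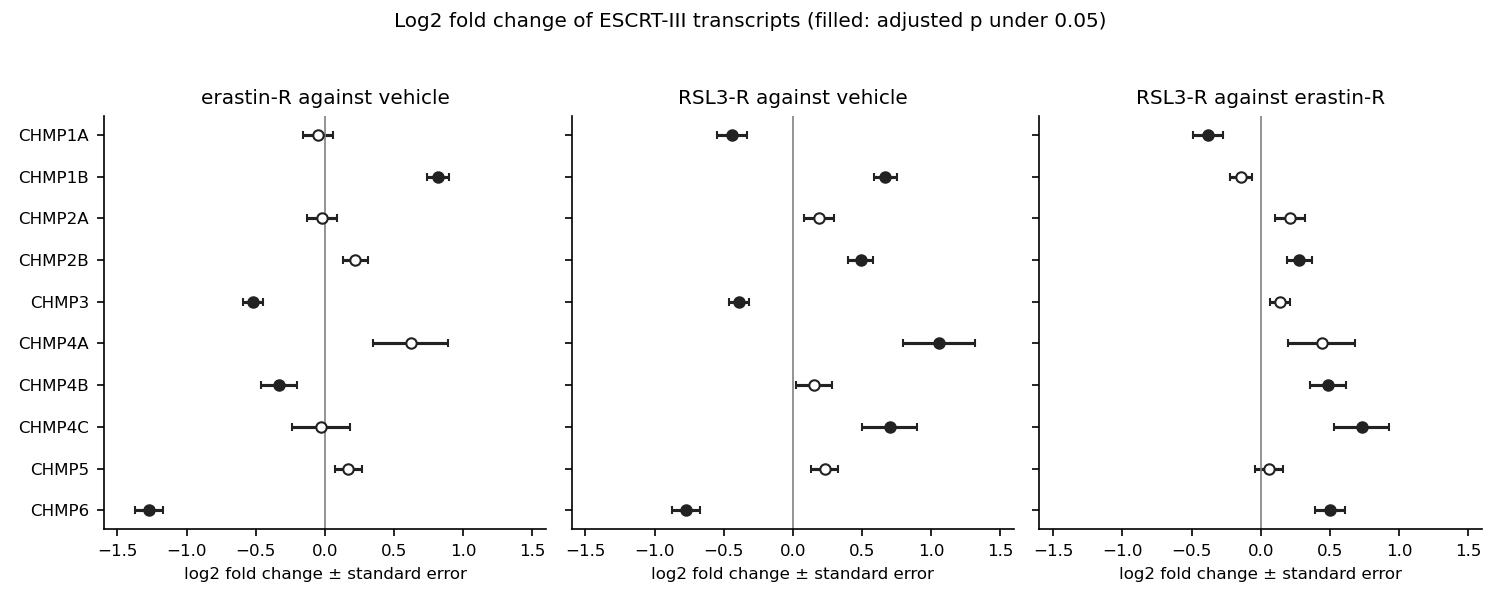
Log2 fold changes of the 10 members against vehicle cells in erastin-R and RSL3-R libraries and between these groups, with bars of 1 standard error and filled points for an adjusted p under 0.05. CHMP6 and CHMP3 lie left of 0 and CHMP1B lies right of 0 in both comparisons with vehicle cells.

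CHMP2A and CHMP2B recruit VPS4 to the finished filament, and mutations of CHMP2B are a known cause of frontotemporal dementia. CHMP2B (ENSG00000083937), whose promoter is printed above, lies on chromosome 3 from 87227271 to 87255548. The libraries held 27.8, 31.6 and 30.5 CPM in vehicle cells, 37.5, 33.1 and 33.7 CPM in erastin-R cells and 45.0, 38.3 and 43.3 CPM in RSL3-R cells. The groups did not overlap, with vehicle lowest and RSL3-R highest. CHMP2B rose 1.41-fold in RSL3-R cells (log2 fold change 0.49, standard error 0.09, edgeR adjusted p = 0.000354), and the value in erastin-R cells was 0.22 (standard error 0.09, edgeR adjusted p = 0.0525), which did not pass. CHMP2A (ENSG00000130724), on chromosome 19 from 58551566 to 58555124, was at 61.8, 65.8 and 59.1 CPM in vehicle cells, 74.6, 50.7 and 58.6 CPM in erastin-R cells and 70.1, 68.7 and 74.0 CPM in RSL3-R cells. Erastin-R replicate 1 was the highest of the 9 libraries and replicate 2 the lowest. The log2 fold change of CHMP2A was -0.02 in erastin-R cells (edgeR adjusted p = 0.888) and 0.19 in RSL3-R cells (edgeR adjusted p = 0.17), and the former became -0.19 without erastin-R replicate 1 (edgeR adjusted p = 0.0234). The RSL3-R value passed only in the fit of RSL3-R and vehicle cells alone (edgeR adjusted p = 0.00618).

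CHMP1A and CHMP1B bind IST1, VPS4 and the microtubule-severing ATPase spastin at the end of the process. CHMP1B (ENSG00000255112) lies on chromosome 18 from 11851396 to 11854449. It shows the largest rise among the members in erastin-R cells. Its level was 49.8, 49.0 and 50 CPM in vehicle cells, 100.1, 80.2 and 82.1 CPM in erastin-R cells and 81.2, 78.7 and 77.7 CPM in RSL3-R cells. No library of surviving cells came near the vehicle range. CHMP1B rose 1.76-fold in erastin-R cells (log2 fold change 0.82, standard error 0.08, edgeR adjusted p = 1.74e-06), or 0.71 on the log2 scale without erastin-R replicate 1, and 1.6-fold in RSL3-R cells (log2 fold change 0.67, standard error 0.08, edgeR adjusted p = 1.27e-05). Both calls held in every alternative run. The antisense gene CHMP1B-AS1, which shares 18.1% of the exon bases of CHMP1B, had 0 counts. As for CHMP6, this count would miss reads in the shared bases where the counting dropped such reads.

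CHMP1A (ENSG00000131165) lies on chromosome 16 from 89644431 to 89657845. The libraries held 109.4, 106.8 and 100.5 CPM in vehicle cells, 78.2, 115.6 and 111.2 CPM in erastin-R cells and 77.9, 77.3 and 78.7 CPM in RSL3-R cells. The RSL3-R libraries were close to each other and all under the vehicle range, while erastin-R replicate 1 had an RSL3-R-like level and replicates 2 and 3 lay above the vehicle libraries. In RSL3-R cells CHMP1A fell to 0.739 times the vehicle level (log2 fold change -0.44, standard error 0.11, edgeR adjusted p = 0.00506). In erastin-R cells the value was -0.05 (standard error 0.11, edgeR adjusted p = 0.699), and 0.10 without replicate 1 (edgeR adjusted p = 0.108).

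CHMP5 takes up the VPS4 cofactor VTA1 and holds it back. CHMP5 (ENSG00000086065) lies on chromosome 9 from 33264879 to 33282069. The libraries held 99.6, 92.2 and 101.5 CPM in vehicle cells, 134.7, 95.8 and 98.7 CPM in erastin-R cells and 115.5, 111.4 and 116.0 CPM in RSL3-R cells. The RSL3-R libraries lay above the vehicle range, yet the log2 fold change of 0.23 did not pass the test (standard error 0.10, edgeR adjusted p = 0.0899). This call depends on the processing, since 5 of 14 alternatives passed (adjusted p from 0.000387 to 0.258 over the 14). Upper-quartile and quantile normalization and the fit of RSL3-R and vehicle cells alone were among those that passed. In erastin-R cells it was 0.17 (edgeR adjusted p = 0.194), and -0.01 without replicate 1 (edgeR adjusted p = 0.901).

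In the direct comparison of the surviving groups, 4 members were higher in RSL3-R than in erastin-R cells (CHMP2B, CHMP4B, CHMP4C and CHMP6) and 1 was lower (CHMP1A), where 22.3% of all genes tested were higher and 26.9% lower, and the stricter threshold was passed by 0 members with edgeR, DESeq2, limma or an unadjusted p and by 10.3% of all genes with edgeR. CHMP4C showed the largest difference, a log2 fold change of 0.73 (standard error 0.20, edgeR adjusted p = 0.00769), and CHMP4B followed CHMP6 with 0.49 (standard error 0.13, edgeR adjusted p = 0.00775). CHMP2B differed by 0.28 (edgeR adjusted p = 0.0164) and CHMP1A by -0.38 (edgeR adjusted p = 0.0114). The call of CHMP2B was lost without erastin-R replicate 2 or 3 (highest adjusted p 0.0655), and that of CHMP1A without erastin-R replicate 2 or RSL3-R replicate 1 or 3 (highest adjusted p 0.0567). Without erastin-R replicate 1, 6 members were higher, CHMP2A (0.37) and CHMP5 (0.23) being added, and CHMP4B and CHMP4C reached 0.73 and 0.99, where 27.1% of all genes were higher. The other members, CHMP1B, CHMP3 and CHMP4A, differed by -0.14, 0.14 and 0.44 and did not pass. With upper-quartile normalization 6 members were higher and 1 lower, and with limma after quantile normalization 6 and 0, CHMP2A and CHMP3 being added in both (0.33 and 0.25 by limma, limma adjusted p = 0.025 and 0.00753). These settings called 7877 and 7810 of all 16188 genes in either direction, beside 7969 in the main fit.

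Levels of different genes were compared per length, as FPKM. In vehicle cells the order was CHMP4B (76.9 FPKM, authors' values, mean of 3 libraries), CHMP5 (40.5 FPKM), CHMP1A (32.6 FPKM), CHMP2A (28.9 FPKM), CHMP1B (16.1 FPKM), CHMP3 (15.2 FPKM), CHMP2B (9.55 FPKM), CHMP6 (9.16 FPKM), CHMP4C (1.73 FPKM) and CHMP4A (0.582 FPKM). The neighbours CHMP1B and CHMP3, and CHMP2B and CHMP6, overlapped between libraries, and the other neighbours did not. In erastin-R cells CHMP4B (60.6 FPKM) and CHMP5 (45.2 FPKM) overlapped, as did CHMP1A, CHMP2A and CHMP1B (31.3, 28.4 and 28.2 FPKM) in turn and CHMP2B and CHMP3 (11 and 10.5 FPKM), and CHMP6 (3.79 FPKM) stood apart from its vehicle neighbour CHMP2B. In RSL3-R cells no neighbours overlapped, and CHMP1B (25.7 FPKM) stood above CHMP1A (24.1 FPKM). The last place of CHMP4A rests on its full exon length, since over its unshared bases it stood above CHMP4C in both surviving groups. Summed over the members, the level was 227.9, 236.5 and 228.9 FPKM in vehicle cells, 253.4, 202.9 and 208.8 FPKM in erastin-R cells and 247.8, 244.0 and 260.2 FPKM in RSL3-R cells. The RSL3-R sums of FPKM lay above the vehicle sums, and the erastin-R sums lay on both sides of them. Summed as CPM, vehicle cells (597.1, 619.1 and 598.6) and RSL3-R cells (629.5, 614.3 and 642.7) overlapped. The erastin-R libraries held 642.7, 551.2 and 560.1 CPM.

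The balance between paralogues was then described as the ratio of their FPKM values within each library. CHMP1A to CHMP1B stood at 2.09, 2.08 and 1.92 in vehicle cells, 0.744, 1.37 and 1.29 in the erastin-R libraries and 0.914, 0.935 and 0.965 in the RSL3-R libraries. The ratio was thus lower in every library of surviving cells, with a mean of 2.03 ± 0.0966 (SD, n = 3) for vehicle, 1.13 ± 0.341 for erastin-R and 0.938 ± 0.0255 for RSL3-R. Exact 2-sided permutation tests gave p = 0.1 for each surviving group against vehicle, the smallest p that 3 against 3 libraries (20 splits) allow with this test. CHMP2A to CHMP2B had a mean of 3.03 ± 0.204 for vehicle, 2.56 ± 0.335 for erastin-R and 2.46 ± 0.174 for RSL3-R (exact permutation p = 0.2 and p = 0.1 against vehicle). CHMP4B to CHMP4C had a mean of 45.0 ± 6.95 for vehicle, 36.4 ± 0.692 for erastin-R and 30.6 ± 2.72 for RSL3-R, and no groups overlapped (exact permutation p = 0.1 for each of the 3 comparisons). The p values of these 9 permutation tests are unadjusted, and this test cannot reach 0.05 with 3 against 3 libraries. The 250 shared bases of ZFAND1 apply to the CHMP4C ratio as well.

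**Figure D3:**
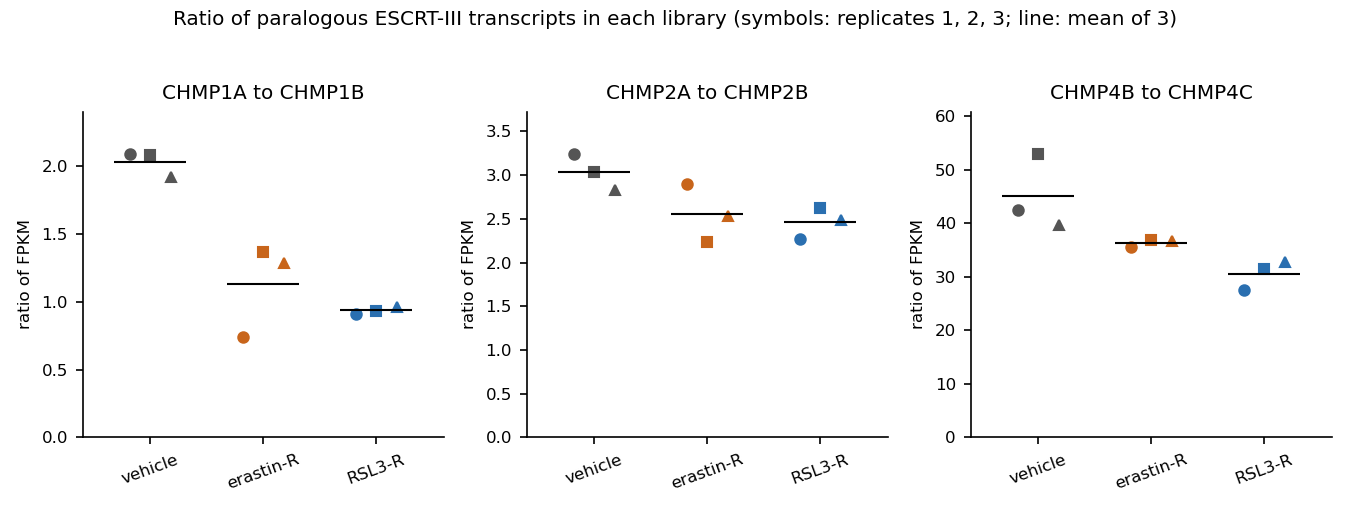
Ratios of FPKM between paralogous members in each library (linear axes from 0), with 1 point per library, 3 libraries per group and a line at the group mean. The ratio of CHMP1A to CHMP1B is near 2 in vehicle libraries and between 0.744 and 1.37 in libraries of surviving cells.

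The remaining ESCRT genes were taken as lists of 31 genes in all, of which all were tested. In erastin-R cells 11 of them rose and 4 fell (27.1% and 26.8% of all genes), and in RSL3-R cells 7 rose and 2 fell (23.8% and 24.9%). The closest relatives, CHMP7, which starts the filament at the nuclear envelope, and IST1 moved little. CHMP7 fell in RSL3-R cells by 0.22 on the log2 scale (edgeR adjusted p = 0.0215) and was at 0.07 in erastin-R cells (edgeR adjusted p = 0.419), and IST1 had log2 fold changes of 0.12 and 0.17 (edgeR adjusted p = 0.182 and 0.0542). Of VPS4A, VPS4B, VTA1, SPAST and MITD1, which take the filament apart or bind its tails, 1 passed a test, VTA1 in erastin-R cells (log2 fold change -0.26, edgeR adjusted p = 0.0372). In that comparison 26.8% of all genes tested fell. VPS4A and VPS4B, the ATPases themselves, had log2 fold changes of -0.17 and 0.12 in erastin-R cells (edgeR adjusted p = 0.0557 and 0.177) and of -0.13 and 0.15 in RSL3-R cells (edgeR adjusted p = 0.137 and 0.112). Without erastin-R replicate 1 the value of VPS4A in erastin-R cells passed at -0.18 (edgeR adjusted p = 0.0308). Other genes share 21% of the exon bases of VPS4A on the same strand and 22% on the opposite strand.

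Among 9 recruiters and regulators of ESCRT-III, 5 rose and 1 fell in erastin-R cells (27.1% and 26.8% of all genes) and 3 rose and 1 fell in RSL3-R cells (23.8% and 24.9%). LEMD2, the nuclear envelope protein that holds CHMP7, was at 78.8, 75.7 and 75.3 CPM in vehicle cells, 131.7, 183.3 and 189.0 CPM in erastin-R cells and 95.5, 95.4 and 106.0 CPM in RSL3-R cells. Its groups did not overlap, and its log2 fold changes were 1.13 in erastin-R cells (standard error 0.11, edgeR adjusted p = 1.27e-06) and 0.37 in RSL3-R cells (edgeR adjusted p = 0.0125). CEP55, which brings ALIX and TSG101 to the bridge between dividing cells, was at 154.1, 172.1 and 175.6 CPM in vehicle cells, 113.9, 92.4 and 87.8 CPM in erastin-R cells and 64.7, 59.6 and 63.1 CPM in RSL3-R cells. CEP55 fell in both groups, with log2 fold changes of -0.77 (edgeR adjusted p = 7.22e-06) and -1.42 (edgeR adjusted p = 2.88e-08). CC2D1A, which binds CHMP4 proteins, rose by 0.56 and 0.19 on the log2 scale (edgeR adjusted p = 1.68e-05 and 0.0359), and PTPN23 had values of 0.47 and -0.08 (edgeR adjusted p = 0.000613 and 0.501).

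The calcium sensor PDCD6 (ALG-2) and its partner PDCD6IP (ALIX) bring ESCRT-III to wounds of the plasma membrane. PDCD6 was at 81.4, 83.6 and 75.8 CPM in vehicle cells, 83.6, 96.3 and 98.2 CPM in erastin-R cells and 76.2, 79.2 and 78.0 CPM in RSL3-R cells, with log2 fold changes of 0.21 (edgeR adjusted p = 0.0254) and -0.04 (edgeR adjusted p = 0.639). PDCD6IP was at 302.0, 313.9 and 343.5 CPM, then 353.5, 348.5 and 332.3 CPM, then 362.1, 361.8 and 361.1 CPM in the same order of groups, with log2 fold changes of 0.11 (edgeR adjusted p = 0.136) and 0.18 (edgeR adjusted p = 0.0226). Both changes were small beside those of CHMP6 and CHMP1B.

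The upstream complexes ESCRT-0, ESCRT-I and ESCRT-II gather ubiquitinated cargo and hand it on to ESCRT-III. Of 12 genes of ESCRT-0 and ESCRT-I, 6 rose and 0 fell in erastin-R cells by edgeR (27.1% and 26.8% of all genes), and 4 rose and 0 fell in RSL3-R cells (23.8% and 24.9%). DESeq2 and an unadjusted p gave the same counts, and limma with quantile normalization added 1 that fell in RSL3-R cells. Without erastin-R replicate 1 the counts in erastin-R cells became 10 and 0 (29.6% and 30.3% of all genes in that fit). Taken apart in the main fit, 4 of 9 ESCRT-I genes and 2 of 3 ESCRT-0 genes rose in erastin-R cells. All 4 that rose in RSL3-R cells were ESCRT-I genes, and 0 of 3 ESCRT-0 genes passed there. Against vehicle, the 12 genes had a median log2 value of 0.26 for erastin-R but -0.01 for RSL3-R. Between the surviving groups 0 of the 12 were higher in RSL3-R cells and 4 were lower (22.3% and 26.9% of all genes). VPS28 and VPS37A, core subunits of ESCRT-I, rose in both groups, by 0.53 and 0.42 for VPS28 (edgeR adjusted p = 0.00016 and 0.00123) and by 0.54 and 0.40 for VPS37A (edgeR adjusted p = 0.000266 and 0.00315) on the log2 scale, and UBAP1 rose by 0.28 and 0.24 (edgeR adjusted p = 0.00411 and 0.011). MVB12A was at 0.62 in erastin-R cells (edgeR adjusted p = 0.000291) and -0.03 in RSL3-R cells (edgeR adjusted p = 0.847), and the ESCRT-0 subunit HGS was at 0.48 and -0.03 (edgeR adjusted p = 4.59e-05 and 0.738). Its partner STAM was at 0.33 and 0.12 (edgeR adjusted p = 0.00437 and 0.241). The direct comparison put MVB12A at -0.65 (log2, RSL3-R over erastin-R) (edgeR adjusted p = 0.00025) and HGS by -0.51 (edgeR adjusted p = 3.63e-05). Exons of other genes on the opposite strand overlap 23.5% of HGS and 12.6% of MVB12A, and genes on the same strand share 15% of the exon bases of MVB12A.

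ESCRT-II, which joins ESCRT-I to CHMP6, had 2 of its 3 subunits lower in erastin-R cells, where 26.8% of all genes tested fell. SNF8 and VPS36 each had a log2 fold change of -0.34 there (edgeR adjusted p = 0.00836 and 0.00305) and of -0.07 and -0.04 in RSL3-R cells (edgeR adjusted p = 0.595 and 0.733). VPS25, which contacts CHMP6, was at 57.7, 58.9 and 55.4 CPM in vehicle cells, 75.4, 51.7 and 54.3 CPM in erastin-R cells and 59.4, 59.8 and 61.5 CPM in RSL3-R cells and passed in neither. Erastin-R replicate 1 was again the library that lay apart for VPS25.

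**Figure D4:**
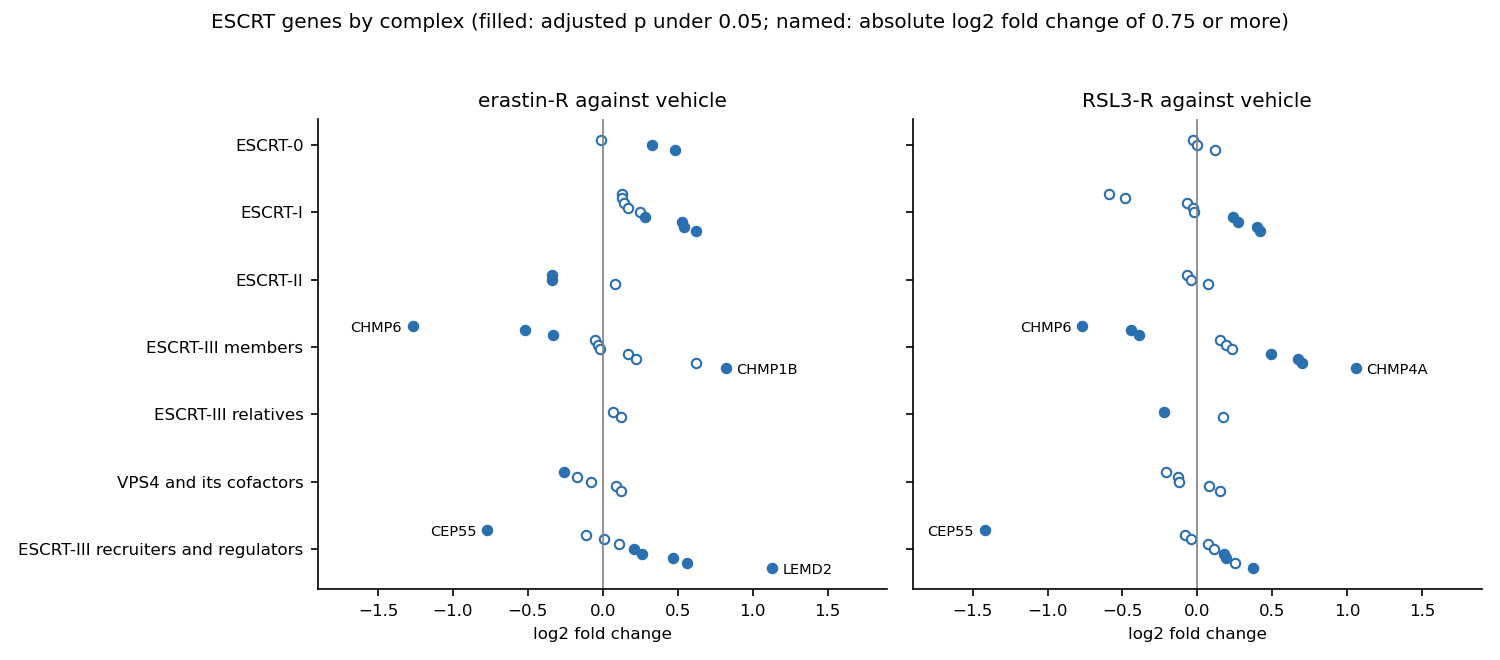
Log2 fold changes against vehicle cells of the genes of each ESCRT complex, 1 point per gene, filled where the adjusted p was under 0.05 and named where the absolute log2 fold change was 0.75 or more. ESCRT-0 and ESCRT-I hold 6 filled points right of 0 and none left of it in erastin-R cells, whereas the ESCRT-III members lie on both sides of 0.

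Plasma membrane repair also uses annexins, S100 proteins, ferlins and calpains, which act at calcium entry. Of 16 such genes tested outside ESCRT, 3 rose and 7 fell in erastin-R cells (27.1% and 26.8% of all genes) and 2 rose and 6 fell in RSL3-R cells (23.8% and 24.9%), with TRIM72, a repair protein of muscle, left untested at 0 to 3 counts. ANXA6, an annexin of the repair cap, was at 257.4, 260.3 and 256.6 CPM in vehicle cells, 190.7, 155.8 and 152.9 CPM in erastin-R cells and 178.3, 184.7 and 179.6 CPM in RSL3-R cells. It fell in both groups, with log2 fold changes of -0.63 (edgeR adjusted p = 9.36e-06) and -0.51 (edgeR adjusted p = 7.12e-05), and so did ANXA2, with -0.51 and -0.58 (edgeR adjusted p = 0.00101 and 0.000451). Dysferlin, encoded by DYSF, was at 22.1, 19.6 and 22.3 CPM in vehicle cells, 23.6, 23.9 and 22.1 CPM in erastin-R cells and 40.2, 41.6 and 45.0 CPM in RSL3-R cells. DYSF rose in RSL3-R cells (log2 fold change 0.99, standard error 0.08, edgeR adjusted p = 4.7e-07) and was higher there than in erastin-R cells (0.87, edgeR adjusted p = 2.24e-06). SYT7, a calcium sensor of lysosome fusion, had 3 to 12 counts per library and was at 1.25 on the log2 scale in erastin-R cells (standard error 0.47, edgeR adjusted p = 0.0383), a call lost without erastin-R replicate 1 (edgeR adjusted p = 0.0873).

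CHMP6 was the member with the largest change among those called in both comparisons with vehicle, and the genes whose pattern was most like it were sought among 12969 protein-coding genes by Pearson's correlation of log2 CPM over the 9 libraries. The 3 highest were RABIF (r = 0.994), MESD (r = 0.993) and IL4R (r = 0.992), and 243 genes exceeded 0.95. RABIF had means of 24.8, 10.3 and 14.5 CPM, MESD of 52.7, 27.7 and 35.2 CPM and IL4R of 118.4, 74.0 and 87.3 CPM in vehicle, erastin-R and RSL3-R cells. All 3 have the order of CHMP6, vehicle highest and erastin-R lowest. The points are 3 groups of 3 libraries, so r here mainly describes the order and spacing of the group means.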

How the data were processed

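The authors deposited, for each library, raw counts of reads per gene and FPKM values made from them. Per the study's methods, libraries were made from oligo(dT)-selected RNA and only uniquely mapped reads in exons were counted. The submitters' processing notes name HISAT2 2.0.5 and featureCounts 1.5.0-p3. The strand setting is not given in the sources used here. All 58735 gene identifiers and coordinates matched GENCODE 29 (GRCh38). Groups came from the treatment labels. Counts were fitted with edgeR 4.0.16 in R 4.3.3 (TMM, filterByExpr, quasi-likelihood test, 9 libraries, 3 groups, no covariate), adjusted by Benjamini-Hochberg over 16188 genes. CPM use TMM-scaled library sizes. Deposited FPKM served for levels between genes and paralogue ratios. The fits were tested first on simulated counts with the same spread for every gene and no library that stood apart. That test does not cover a library such as erastin-R replicate 1. Alternatives were upper-quartile, total-count and quantile (limma 3.58.1) normalization, DESeq2 1.42.0, other filters, 2-group fits, a replicate block, unadjusted p and each library left out. Members, lists and motifs were chosen with earlier results of these data known. All 10 members are named. From each other list, up to 4 called genes with the largest change are named, beside the relatives, VPS4 genes, PDCD6 and PDCD6IP. VPS25 and ZFAND1 were added after their values were seen. Figures used matplotlib 3.10.9.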

Additional observations from a re-analysis of the deposited data

How the results depend on the processing

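Over the 10 members and 3 comparisons, 414 alternative values were computed, of which 371 kept their direction and their side of the threshold. The calls of CHMP1B, CHMP3 and CHMP6 in both comparisons with vehicle, those of CHMP1A, CHMP2B, CHMP4A and CHMP4C in RSL3-R cells, and those of CHMP4B, CHMP4C and CHMP6 between the surviving groups held in every alternative that gave them a value. The number of members higher in erastin-R cells was 2 with total count scaling or limma with quantile normalization, 3 with an unadjusted p, and 1 to 2 with a library left out. Total count scaling, limma and the unadjusted p called 8732, 8683 and 9579 of all 16188 genes in either direction, beside 8735 in the main fit. In RSL3-R cells 7 members were higher with only the 2 groups compared. That fit called 9190 of 15701 genes in either direction, beside 7879 of 16188 in the main fit. The number past the stricter threshold in RSL3-R cells was 0 with limma with quantile normalization or a mean FPKM of at least 5, which removes CHMP4A, and 0 to 1 with a library left out. The number lower in RSL3-R than in erastin-R cells was 0 with limma with quantile normalization and 0 to 1 with a library left out. In that comparison limma called 7810 of all 16188 genes in either direction, beside 7969 in the main fit. Among members not called, CHMP5 in RSL3-R cells passed in 5 alternatives, CHMP2A and CHMP3 between the surviving groups in 3 each and CHMP4A in erastin-R cells in 2. Passing in 1 each were CHMP2A and CHMP2B in erastin-R cells, CHMP2A and CHMP4B in RSL3-R cells and CHMP5 between the surviving groups. The log2 fold changes that changed sign were near 0 and passed no test with that sign. With total count scaling CHMP2A in erastin-R cells was at 0.00. With a library left out, values in erastin-R cells ranged from -0.19 to 0.10 for CHMP2A, -0.30 to 0.09 for CHMP4C, -0.16 to 0.10 for CHMP1A and -0.01 to 0.26 for CHMP5, and the difference between surviving groups from -0.03 to 0.23 for CHMP5. The cause of these shifts was not tested. CHMP4B in erastin-R cells had the least steady call, lost in 8 of 14 alternatives (adjusted p from 2.44e-09 to 0.183).

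With the replicate number as a block, the counts of members called were 1 higher and 3 lower for erastin-R against vehicle, 4 and 3 for RSL3-R against vehicle and 4 and 1 between the surviving groups, and no member's call changed. In the same order, the block fit called 8438, 7508 and 7614 of all 16188 genes, beside 8735, 7879 and 7969 in the main fit. Libraries with the same number did not deviate together (correlations from -0.0904 to 0.0518 over 9 pairs, and from -0.088 to 0.123 over 18 pairs with different numbers), so the numbers were not taken as pairs. Depth limits CHMP4A and CHMP4C most, whose counts per library were 16 to 57 and 41 to 91.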
